A study of Solanum lycopersicum with 9 samples.

Results

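Guard cells of the tomato line pro17, in which the DELLA protein has gained function, were compared with guard cells of its parent cultivar M82. The 6 libraries were taken by their genotype labels, 3 of pro17 and 3 of M82, out of 9 in the series, and the 3 libraries of the loss-of-function line pro entered no test reported here except where stated. In pro17 the DELLA allele written pro∆17 is expressed, and the promoter that drives it is not given in the sources used here. Both groups carry the strain label M82, share the sp-/sp background that the labels give for this cultivar, and were grown in a growth room under the same light and temperature. The titles of pro17 libraries 2 and 3 differ from their genotype label in the number that follows the delta, and groups follow the label. Epidermal peels rich in guard cells were obtained by blending fully expanded leaves from which the veins had been removed, and polyadenylated RNA was sequenced. Whether replicate libraries stem from different plants is not stated, so the spread behind each p-value may be technical.

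DELLA proteins sit in the nucleus and hold back the responses to the growth hormone gibberellin. Gibberellin binds the receptor GID1, the complex captures DELLA, and an F-box protein of the SLY1 type marks DELLA for degradation. DELLA in turn raises transcripts for gibberellin synthesis and perception in many plants, a feedback that restores the hormone's action. In guard cells, the paired cells around the stomatal pore, tomato DELLA is known for promoting closure in response to abscisic acid, the hormone of drying leaves. Tomato has one DELLA gene, PROCERA. The series addresses what DELLA does when tomato plants run short of water.

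Read totals were 14826561 to 19528502 in pro17 and 16557177 to 19220341 in M82, over 23027 gene identifiers. Values are the authors' normalized counts, in which each library is scaled to a common depth but genes are not divided by their length. The deposited file pairs no names with its identifiers, and 0 of them matched the RefSeq gene table. Loci were therefore grouped into 24 lists fixed by identifier from general knowledge of tomato genes, and what each locus is was not checked against an annotation. Of the 117 listed loci, 110 were in the table and 105 had enough reads to be tested. Loci of guard cells and of their neighbours were both read. The FAMA-type locus of the stomatal lineage list, a factor of guard cell identity, was higher in pro17 without overlap. So were 10.5% of all genes tested. The FAMA-type locus read 1207, 1255 and 1314 normalized counts in pro17 and 1149, 1074 and 1104 in M82. Its log2 fold change was 0.18, with an adjusted p of 0.361 in limma's test. The groups overlapped at the other loci of that list, with log2 fold changes of -0.18 and 0.15. They also overlapped at the guard cell anion channel locus SLAC1, with 0.16. The 6 cuticle loci, which mark the epidermis as a whole, summed to 31831 to 35970 in pro17 and 37759 to 59640 in M82. Transcripts of Rubisco's small subunit, abundant in mesophyll and present in guard cell chloroplasts, summed to 191771 to 224449 in pro17 and 155929 to 243134 in M82. The share of other cell types was not tested. In such bulk samples, fewer cells of a type and less RNA per cell cannot be told apart.

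The pro17 libraries were more alike than the M82 libraries. The SD of a gene over 3 libraries, on the log2(normalized count + 1) scale, had a median over genes of 0.14 in pro17 and 0.21 in M82, and it was larger in M82 for 68.1% of 20553 genes. On the second principal component, with 27.9% of the variance, M82 library 3 stood apart. It lay at -57.0 and the other 5 libraries between 2.52 and 20.4, whereas the first component, with 41.9%, put the pro17 libraries at -35.5 to -22.2 and the M82 libraries at 2.62 to 50.4. The library farthest from its group's median was pro17 library 1 at 44.6% of genes in pro17 and M82 library 3 at 46.4% in M82. All 8 loci listed as PP2C phosphatases of abscisic acid signalling, all 4 tested loci of abscisic acid synthesis and both dehydrins read highest in M82 library 3 within their group. Over all 30 tested loci of abscisic acid and dehydrin lists, 20 read highest and 8 lowest there, among them 4 highest and 5 lowest of 10 receptor loci. Beyond these lists, 5 of 6 phytochrome-interacting factors and the 3 tested loci of early gibberellin synthesis also read highest in that library. In turn 5 of 6 cuticle loci, all 3 loci of Rubisco's small subunit and 2 of 3 stomatal lineage loci read lowest in it. The share of all genes that read highest or lowest in it was not computed, so these counts have no baseline. As the library farthest from the M82 median, M82 library 3 lay on the high side at 4615 genes and on the low side at 4921. One dehydrin locus stood at 42.2, 35.9 and 37.4 in pro17, against 12.6, 38.3 and 174 in M82 libraries 1, 2 and 3. What set this library apart was not tested, and counts are given with and without it.

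In pro17 guard cells 447 of 20553 genes, or 2.17% of those tested, passed an adjusted p of 0.05 against M82, with 260 genes (1.27%) higher and 187 genes (0.91%) lower in pro17. The test was limma's moderated test on log2(normalized count + 1), fitted on the 6 libraries and adjusted by Benjamini-Hochberg over all genes tested. Among the higher genes, 138 changed by less than 2-fold, 86 by 2- to 4-fold, 21 by 4- to 8-fold and 15 by at least 8-fold on this scale, which understates the change of low genes. Among the lower genes these counts were 79, 83, 18 and 7. The median log2 fold change was 0.97 for higher genes and -1.10 for lower genes, and -0.01 over all genes tested. At each of the 447 genes the pro17 values did not overlap the M82 values. Over all genes tested, 10.5% had every pro17 value above every M82 value, 10.6% had every pro17 value below, and 15.4% had an unadjusted p under 0.05.

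**Figure D1:**
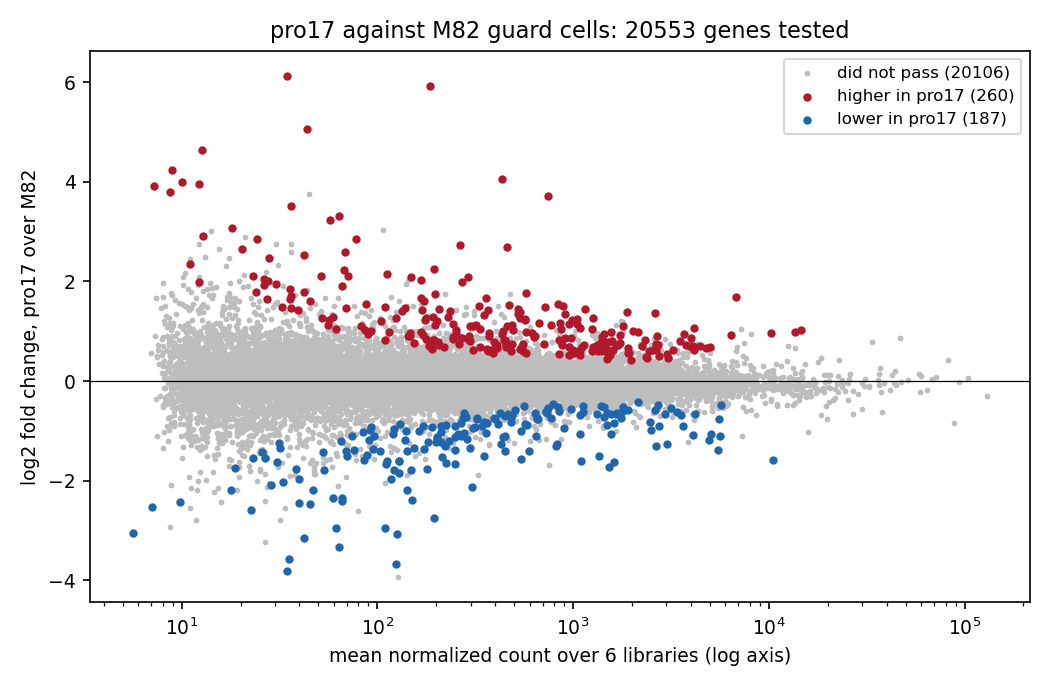
Log2 fold change of pro17 over M82 (vertical axis) against the mean normalized count over the 6 libraries (horizontal log axis), 1 point per gene tested. Red points are the 260 genes higher in pro17, blue points the 187 genes lower and grey points the genes that did not pass; genes that passed lie at every level, with larger changes at low levels.

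Genes that passed were spread over all expression levels. When the tested genes were split by mean normalized count into 4 equal classes, 1.62% passed in the lowest class, with a median absolute log2 fold change of 2.05, and 2.84% in the highest class, with 0.72. In the highest class 95 genes were higher and 51 lower in pro17. Together the 260 higher genes took 1.80% to 1.94% of all normalized counts in pro17 libraries and 0.952% to 1.07% in M82 libraries. The 187 lower genes took 0.592% to 0.637% in pro17 libraries and 1.14% to 1.17% in M82 libraries.

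PROCERA itself (Solyc11g011260.1) was higher in pro17. Its transcript read 5628, 5486 and 7448 normalized counts in pro17 and 3754, 3934 and 3824 in M82, so the 3 pro17 libraries lay above the M82 libraries and differed more among themselves. The log2 fold change was 0.68 ± 0.13 (SE), with an adjusted p of 0.0423 in limma's fit. That call was lost without each single library other than M82 library 3, with an adjusted p of up to 0.143. The transcript level does not report DELLA protein activity, and reads of the introduced allele may count at this locus, which was not tested. As the gene altered in pro17, it gives no independent support to the lists that follow.

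Among the loci of gibberellin perception, 2 of the 3 listed GID1 receptor loci rose and the third did not pass. Of all genes tested, 1.27% passed as higher, and the lists were drawn up with results of these libraries known. GID1 locus A read 444, 406 and 416 normalized counts in pro17, against 208, 184 and 194 in M82 (log2 fold change 1.11 ± 0.11 SE, adjusted p = 0.00484 in limma). GID1 locus B read 667, 565 and 665 in pro17, against 283, 273 and 319 in M82 (1.11 ± 0.12, adjusted p = 0.00521 in limma). Libraries of a group lay close together at both loci, well apart from the other group, and both calls held when any one of the 6 libraries was left out (adjusted p up to 0.0417 and 0.0469). The third locus read 746, 735 and 776 in pro17 and 684, 612 and 781 in M82, with a log2 fold change of 0.13. The F-box locus listed as SLY1, which acts downstream of the receptor, read 1866, 1501 and 1631 in pro17 and 1671, 1373 and 1304 in M82, with overlapping groups (0.20, adjusted p = 0.503 in limma).

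**Figure D2:**
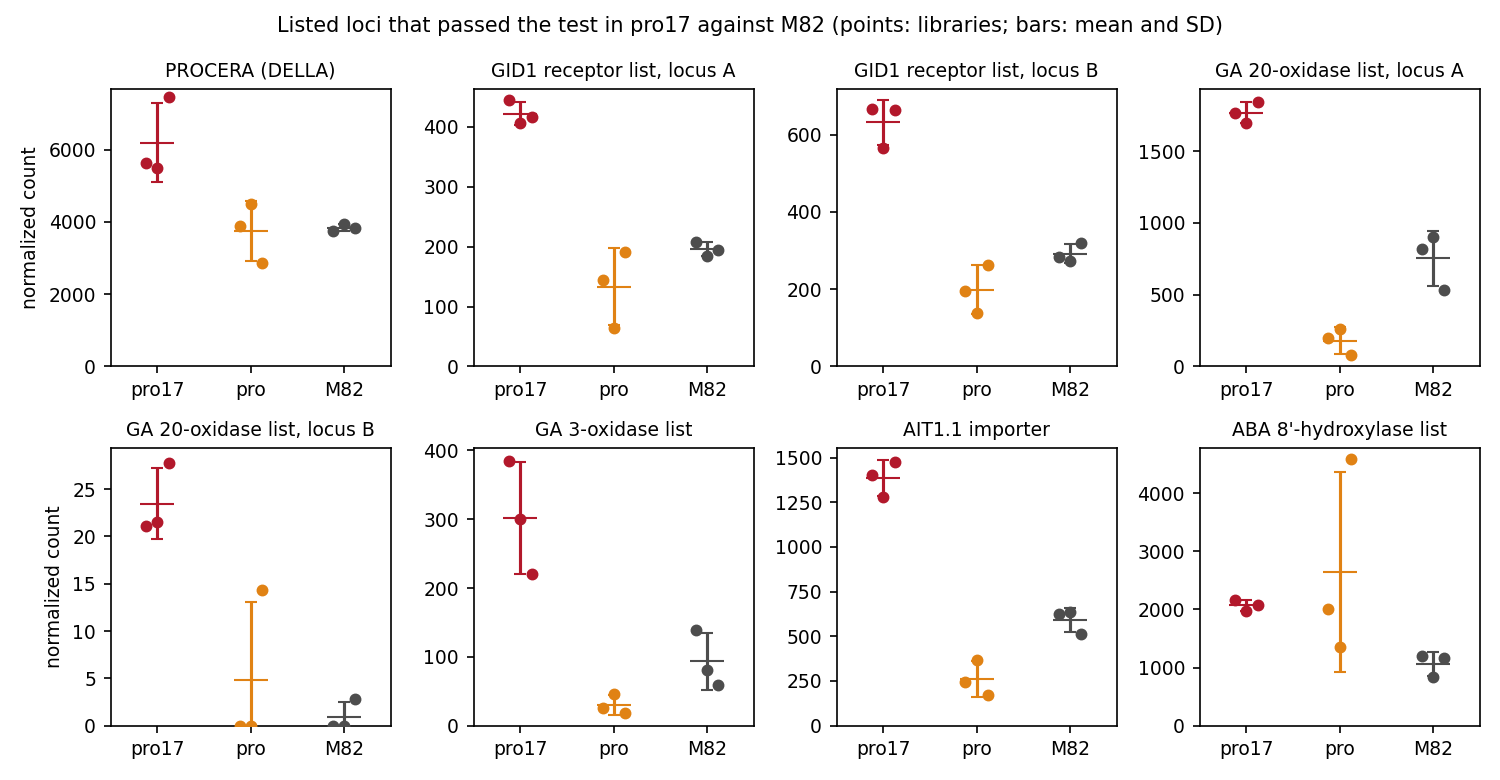
Normalized counts (vertical axes, starting at 0) of the 8 listed loci that passed in pro17 against M82, by line; points are libraries, bars the mean ± SD of 3 libraries. Every pro17 library lies above every M82 library in all 8 panels. The pro libraries, which were not part of the test, lie below all M82 libraries for AIT1.1, the 3-oxidase, 20-oxidase locus A and GID1 locus B. They lie above all M82 libraries for the 8'-hydroxylase and overlap M82 for PROCERA, GID1 locus A and 20-oxidase locus B. The share of all genes with pro below or above M82 in this way was not computed.

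Gibberellin 20-oxidases and 3-oxidases carry out the last steps to the active hormone. Of 6 listed loci for them 4 were tested, and 3 of these rose in pro17, beside 1.27% of all genes that passed as higher. One 20-oxidase locus, locus A, read 1763, 1694 and 1844 normalized counts in pro17, against 818, 904 and 534 in M82 (log2 fold change 1.27 ± 0.18 SE, adjusted p = 0.0142 in limma). Locus B had few reads. It had 69 reads in the pro17 libraries and 3 in the M82 libraries, all 3 of them in M82 library 3, a depth-scaled ratio of 23.0 (95% Clopper-Pearson bounds 7.53 and 114, counting error only; adjusted p = 0.0175 in limma). The remaining tested 20-oxidase locus read 121, 135 and 127 in pro17, against 49.1, 87.3 and 42.5 in M82. Its groups did not overlap, and it missed the threshold (1.15, adjusted p = 0.0701 in limma), which it passed without M82 library 3 (0.0404) and in DESeq2 (0.00760).

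The single 3-oxidase locus in the table read 385, 300 and 221 normalized counts in pro17 and 139, 81.5 and 59.1 in M82 (log2 fold change 1.74 ± 0.32 SE, adjusted p = 0.0340 in limma). Its lowest pro17 library stood above its highest M82 library, although both groups varied widely. Calls in this branch depended on single libraries: that of 20-oxidase locus A was lost without any one pro17 library (adjusted p up to 0.0879), and those of locus B and of the 3-oxidase also without M82 library 2 (adjusted p up to 0.120 and 0.151).

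Gibberellin 2-oxidases, which inactivate the hormone, and the enzymes of early synthesis gave no such picture. None of the 4 tested 2-oxidase loci passed, with log2 fold changes from -0.48 to 0.96, none of the 4 with an unadjusted p under 0.05 and none called by edgeR's or DESeq2's test. The 2-oxidase locus with the highest counts read 722, 1057 and 1393 normalized counts in pro17 and 1091, 639 and 228 in M82, with overlapping groups. None of the 3 tested loci of early synthesis passed in limma or edgeR, and in limma 1 reached an unadjusted p under 0.05. That one, listed as an oxidase of kaurenoic acid, read 993, 1100 and 794 in pro17 and 1318, 1300 and 1448 in M82, with no overlap (log2 fold change -0.51, adjusted p = 0.0949), and DESeq2 called it lower (adjusted p = 0.0298). GAST1, named as a transcript that gibberellin raises in tomato, read 2531, 2317 and 2610 in pro17 and 2912, 2802 and 2084 in M82 (-0.05, adjusted p = 0.909 in limma).

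The locus of AIT1.1 (Solyc05g006990.3), a transporter of the NRT1/PTR family that imports abscisic acid, rose in pro17. It read 1403, 1278 and 1476 normalized counts in pro17, against 625, 635 and 515 in M82 (log2 fold change 1.23 ± 0.11 SE, adjusted p = 0.00366 in limma), and each pro17 library lay far above all M82 libraries. The call held when any one of the 6 libraries was left out (adjusted p up to 0.0319). The locus next to it in identifier order read 72.9, 74.6 and 71.2 in pro17 and 26.3, 42.2 and 24.0 in M82, with a log2 fold change of 1.26 (adjusted p = 0.0478 in limma). The locus on the other side of AIT1.1 read 213, 205 and 170 in pro17 and 138, 123 and 188 in M82, with overlapping groups (0.40, adjusted p = 0.358 in limma). Both were looked up after the values of AIT1.1 were known, and reads shared between near-identical or overlapping neighbours cannot be told apart here.

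Of the 30 tested loci of abscisic acid and dehydrin lists, AIT1.1 and 1 other passed, beside 1.27% of all genes that passed as higher. Among the 8'-hydroxylases, which break the hormone down, 1 of 3 tested loci rose, to 2157, 1975 and 2074 normalized counts in pro17, against 1192, 831 and 1166 in M82 (log2 fold change 0.98 ± 0.14 SE, adjusted p = 0.0145 in limma). This call was lost without any one pro17 library (adjusted p up to 0.0911). None of the 4 tested synthesis loci passed, nor any by edgeR or DESeq2, and none had an unadjusted p under 0.05. The locus listed as NCED1, the rate-limiting step of synthesis, read 1086, 1038 and 1096 in pro17 and 334, 980 and 2207 in M82. All pro17 values of this locus lay inside the range of the M82 libraries.

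None of the listed abscisic acid receptors, phosphatases and dehydrins passed in limma with all 6 libraries. Of 10 tested PYL receptor loci, 6 had positive and 4 negative log2 fold changes, from -0.34 to 0.42, and 0 passed in limma, where 4 had an unadjusted p under 0.05 (15.4% over all genes), while DESeq2, which called 5.16% of all genes, called 1 higher (adjusted p = 0.0401). Of 8 PP2C phosphatase loci, the brakes of the pathway that abscisic acid itself induces, 6 had negative log2 fold changes, and the median over the 8 was -0.20. In limma 0 passed and 4 had an unadjusted p under 0.05. Without overlap, 3 loci lay lower in pro17 and 1 higher, beside 10.6% and 10.5% of all genes. The higher locus, among those 4, read 4086, 4927 and 4711 in pro17 and 3733, 3848 and 3919 in M82 (0.25, adjusted p = 0.291 in limma). All 8 read highest in M82 library 3 among the M82 libraries, and without that library 5 of the 8 changes were positive, with a median of 0.12. DESeq2 called 2 lower with all libraries. One of these read 174, 136 and 117 in pro17 and 208, 249 and 351 in M82 (-0.90, adjusted p = 0.0852 in limma, 0.00744 in DESeq2). The other read 55.6, 44.9 and 22.9 in pro17 and 68.5, 75.6 and 306 in M82 (-1.57, adjusted p = 0.227 in limma, 0.0148 in DESeq2), and without M82 library 3 its log2 fold change was -0.88, still with no overlap. The kinase locus listed as OST1 read 2511, 2832 and 2720 in pro17 and 3114, 2675 and 2539 in M82 (-0.04). A second dehydrin locus read 2335, 2160 and 2489 in pro17 and 1518, 1583 and 2214 in M82, overlapping at M82 library 3 (0.41, adjusted p = 0.225 in limma), and passed without that library (0.58, adjusted p = 0.00645).

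**Figure D3:**
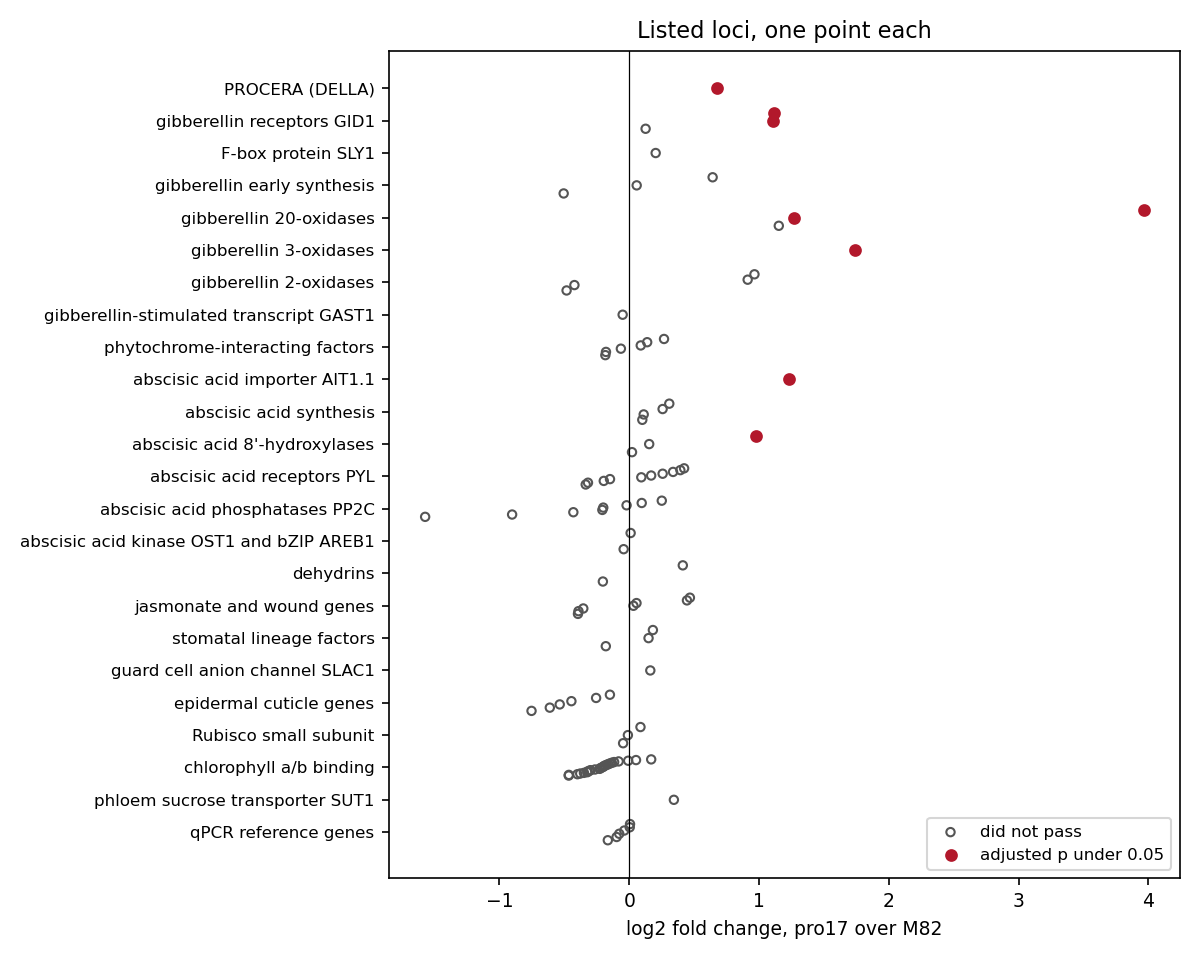
Log2 fold change of pro17 over M82 (horizontal axis) for the 105 tested loci, 1 point each, grouped by list; filled red points passed an adjusted p of 0.05 over all genes. The 8 loci that passed lie between 0.68 and 3.96, all to the right of 0.

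Over all lists 8 loci passed, all higher in pro17, of 105 tested, beside 1.27% of all genes higher and 0.91% lower. The lists were drawn up with results of these libraries known, so this count is a description and not evidence for them. With the more variable pro libraries in the fit, 0 of the 8 passed, with an adjusted p of 0.136 for AIT1.1 and 0.368 for GID1 locus A.

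Lists of neighbouring cell types and of other hormones held no passing locus in limma with all 6 libraries. All 6 cuticle loci had negative log2 fold changes, with a median of -0.49 beside -0.01 over all genes, and at 4 every pro17 value lay below every M82 value, beside 10.6% of all genes. The cuticle locus listed as CD1, a cutin synthase, read 14006, 15657 and 13808 normalized counts in pro17 and 29145, 28852 and 17227 in M82 (-0.75, adjusted p = 0.129 in limma), and M82 library 3 lay nearest to pro17. Without that library, when 4.4% of all genes passed as lower and 5.15% as higher, 3 cuticle loci passed as lower, at -1.003, -0.71 and -0.74, and DESeq2 called 3 with all libraries. Chlorophyll a/b binding loci had negative changes at 23 of 25, with a median of -0.21, and 0 passed in limma, edgeR or DESeq2. In limma 7 had an unadjusted p under 0.05 (15.4% over all genes). At 11 of the 25 every pro17 value lay below every M82 value, beside 10.6% of all genes, and at 0 above. The sum over the 25 loci was 335212 to 349965 in pro17 and 360468 to 438079 in M82. The phloem sucrose transporter locus, SUT1, read 18057, 16820 and 16551 in pro17 and 11745, 13367 and 15659 in M82, without overlap (0.34, adjusted p = 0.294 in limma). Without M82 library 3, 1 chlorophyll a/b binding locus passed as lower (adjusted p = 0.0496) and SUT1 as higher (0.0440). The part of other cell types in these differences was not tested.

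Stomatal lineage loci and the anion channel locus SLAC1, which releases anions when stomata close, had log2 fold changes from -0.18 to 0.18, and 0 of these 4 passed in limma, edgeR or DESeq2 or had an unadjusted p under 0.05. Phytochrome-interacting factors, light-regulated proteins that DELLA binds, had changes from -0.18 to 0.27 at 6 loci. The locus with the highest of these changes read 3536, 3496 and 3714 in pro17 and 2942, 2791 and 3203 in M82 (adjusted p = 0.209 in limma). Of 7 jasmonate and wound loci 0 passed in limma, where 2 had an unadjusted p under 0.05 (15.4% over all genes). At both, every pro17 value lay below every M82 value, beside 10.6% of all genes. The first read 788, 733 and 819 in pro17 and 892, 905 and 1334 in M82 (-0.39, adjusted p = 0.280 in limma). The other, a JAZ repressor locus, read 1349, 1307 and 1360 in pro17 and 1693, 1594 and 1857 in M82 (-0.35, adjusted p = 0.0979 in limma), and DESeq2 called it lower (0.0414). A lipoxygenase locus of jasmonate synthesis read 1373, 1502 and 1321 in pro17 and 620, 807 and 2059 in M82 (0.47, adjusted p = 0.626 in limma), and passed as higher without M82 library 3, its highest M82 value (0.98, adjusted p = 0.00243). The 6 loci used in tomato as references for quantitative PCR had changes from -0.16 to 0.01.

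The largest changes in each direction were sought among genes that passed, had no overlap between pro17 and M82 and averaged at least 1 CPM (reads scaled to a common total). The file gives them no name. Solyc11g044455.1 had no read in any M82 library and stood at 64.3, 80.8 and 62.8 normalized counts in pro17, at least 69.5-fold higher if 3 reads are taken as the floor for the M82 group as a whole (adjusted p = 0.00172 in limma). Its call held under every setting tried. It was 1 of 5 genes with 0 reads in all M82 libraries and at least 10 in each pro17 library, none of which had a read in a pro library, and their bounds ran from 11.6- to 69.5-fold. Of these 5, 4 passed and 1 was below the level filter. No gene had 0 reads in all pro17 libraries and at least 10 in each M82 library.

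Solyc06g035940.3 read 126, 105 and 853 normalized counts in pro17, against 25.1, 0.98 and 0 in M82 (log2 fold change 5.92 ± 1.21 SE, adjusted p = 0.0493 in limma). Both groups were scattered, and the call was lost under 10 of 16 alternatives, edgeR and DESeq2 among them. In pro, which was not tested, Solyc06g035940.3 read 2553, 3141 and 1933, above every pro17 and every M82 library. The strongest losses were at Solyc02g037550.3 and Solyc03g006550.3. Solyc02g037550.3 read 2.88, 10.8 and 1.21 in pro17 and 64.0, 61.8 and 67.4 in M82 (-3.81 ± 0.56, adjusted p = 0.0153 in limma). Solyc03g006550.3 read 7.67, 21.6 and 16.9 in pro17 and 76.5, 231 and 398 in M82 (-3.67 ± 0.59, adjusted p = 0.0196 in limma). The M82 libraries of the first lay close together, and those of the second spread widely. Both calls were lost without some single libraries, with an adjusted p of up to 0.0911 and 0.101. In pro, Solyc02g037550.3 read 185, 29.65 and 125, and Solyc03g006550.3 read 454, 519 and 229, both overlapping M82.

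By the chromosome in the identifier, the share of tested genes that passed ran from 1.27% on chromosome 11, which carries PROCERA, to 3.04% on chromosome 8. On chromosome 11, 14 genes were higher and 4 lower in pro17. In identifier order 32 of the 447 lay beside another that passed in the same direction, and no 3 in a row passed in the same direction. Another 4 adjacent pairs passed in opposite directions. How many neighbours would be expected at random was not computed.

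The levels in pro guard cells stand beside these values as a description, without a test, since pro and pro17 share the M82 libraries as controls. AIT1.1 read 242, 370 and 173 in pro, against 625, 635 and 515 in M82. The 20-oxidase locus A read 200, 260 and 78.9 in pro, against 818, 904 and 534 in M82, and the 3-oxidase locus read 25.98, 45.5 and 17.9 in pro, against 139, 81.5 and 59.1 in M82. GID1 locus B read 195, 137 and 263 in pro, against 283, 273 and 319 in M82. At these 4 loci every pro library lay below every M82 library, and the share of all genes with this order was not computed. GID1 locus A overlapped M82, at 144, 64.2 and 192 in pro. PROCERA also overlapped, at 3892, 4507 and 2851 in pro, against 3754, 3934 and 3824 in M82. The 20-oxidase locus B read 0, 0 and 14.3 in pro, against 0, 0 and 2.77 in M82. The 8'-hydroxylase locus that rose in pro17 was also above M82 in every pro library, at 2001, 1346 and 4587.

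The number of genes that passed depended on single libraries, as the plot of counts by setting shows. Without M82 library 3, 1991 genes passed (9.55% of 20844 tested), 1073 higher and 918 lower in pro17, all 447 among them, and the 1544 others had a median absolute log2 fold change of 0.68. With M82 library 1 left out 357 passed, with M82 library 2 left out 126, and with pro17 library 1, 2 or 3 left out 69, 66 and 56. Of the listed loci 16 passed without M82 library 3, 12 higher and 4 lower, and 3 passed without any one pro17 library. DESeq2 on the recovered reads called 1061 genes, 446 of the 447 among them, and edgeR called 478 (2.33%), with 439 of the 447.

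**Figure D4:**
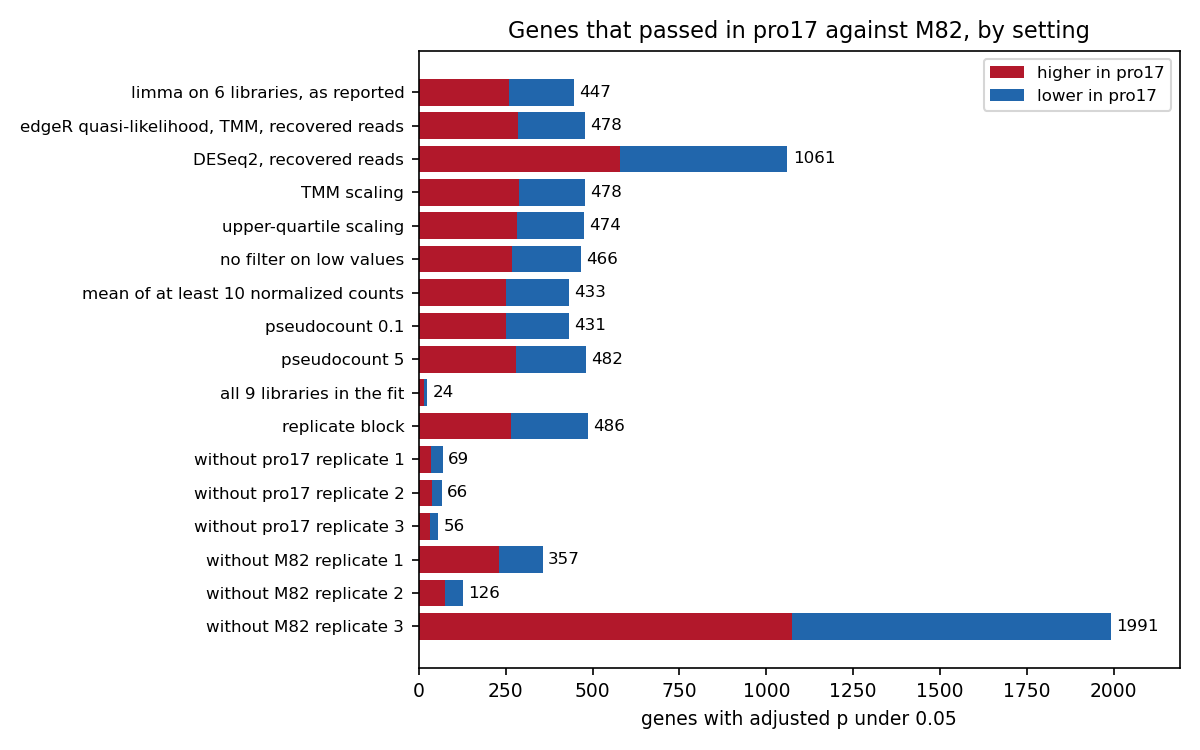
Number of genes with an adjusted p under 0.05 in pro17 against M82 (horizontal axis) under each setting (1 bar each), split into higher in pro17 (red) and lower in pro17 (blue). Other scalings, filters and pseudocounts give 431 to 482 genes; single libraries left out give 56 to 1991, and a fit with all 9 libraries gives 24.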

How the data were processed

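Guard cell RNA of 3 pro17 and 3 M82 libraries was compared. The authors' deposited table gives a signal per gene and library, headed normalized counts per the file headers: read counts divided by a size factor per library, rounded to 2 decimals. The submitters' processing notes name cutadapt, STAR 2.4.2a, HTSeq and DESeq2. Build, annotation release and strand setting are not given in the sources. The authors' own fold changes and p-values and 2 unnamed columns were not used. Of 23028 rows, 2 share 1 identifier and were kept apart. In every library 100% of values were whole multiples of 1 step (tolerance 0.006), which gave whole reads. Chi-square per degree of freedom between replicates was at least 5.16, so no library was counted with another.

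Limma 3.58.1 (R 4.3.3) with a mean-variance trend was fitted on log2(normalized count + 1) of the 6 libraries, after edgeR's expression filter on recovered reads (20553 genes kept, 2475 left out), with Benjamini-Hochberg adjustment at 0.05. EdgeR 4.0.16 with TMM, DESeq2 1.42.0 on recovered reads, other scalings, filters, pseudocounts, a replicate block, all 9 libraries and each library left out were alternatives. All 3 tests were run on simulated counts in which each gene had the same spread in both groups. Those counts lack the larger spread of M82, so they do not show how the tests fare with it.

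The comparison and the gene lists were chosen with earlier results of these data known. Named genes are those that passed with no overlap and a mean of at least 1 CPM: the 2 that rose most and the 2 that fell most, because no table pairs identifiers with names; also PROCERA, AIT1.1 and listed loci that passed. Identifiers are printed for PROCERA, AIT1.1 and the genes named by size; the other loci are given by list. Reads carry no molecular identifiers, so intervals and floors describe counting error alone.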

Additional observations from a re-analysis of the deposited data

How the results depend on the processing

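With limma on 6 libraries 447 genes passed. DESeq2 on recovered reads called 1061 and a fit with all 9 libraries 24; single libraries left out gave 56 to 1991. EdgeR, other scalings, filters and pseudocounts gave 431 to 482 genes. Of the listed loci 8 passed, against 17 with DESeq2, 0 with all 9 libraries and 3 to 16 with single libraries left out. The 12 named loci kept their direction in all 192 values under alternatives and lost their call in 48. With the replicate number as a block 486 genes passed, 360 of the 447 among them, and the calls of PROCERA (adjusted p = 0.0533) and Solyc06g035940.3 (0.0735) were lost; deviations from the group means correlated at 0.19, 0.20 and 0.08 between same-numbered libraries and below 0 between all others. Deviations within a group sum to 0 at each gene. Positive same-number values therefore push the others below 0, and those negative signs are no added evidence. Each library correlated best with its own number, a hint of pairing from the data and not the design. The numbers were not used as pairs because no label ties them to a plant or batch and 1 correlation was under 0.1. The ratio of median SDs, pro17 over M82, was 0.67 under all 3 pseudocounts. The share of higher genes among those called was 58.2%, and 49.3% without pro17 library 1 and 64.7% without M82 library 1. With 3 libraries a group, changes of low genes are the least certain.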
